A study of Rattus norvegicus with 31 samples.

Results

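Proteasome genes were taken as every row of the deposited count matrix whose symbol began with Psma to Psmg followed by a digit, which gave 50 of 20207 genes. They were followed in the kidney cortex and the colon of rats. Of the 50, 48 passed the filter on low counts in the cortex and 45 in the colon. Psmb11, the beta subunit of thymic epithelium, had 0 counts in every library, which allows up to 3 counts in each, and Psma8, the alpha subunit of the testis, had 1 count in all. Psme1, Psmd10 and Psmc3ip passed the filter in the cortex but not in the colon. Psmc3ip and Psme3ip1 match the symbol rule without being subunits, and are kept apart from the others.

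The study asked what calcitriol, the active hormone form of vitamin D, does in rats made hypertensive by salt. NC rats were the normal controls, HS rats were the high-salt model, and CAL rats had the high-salt diet together with calcitriol supplementation. From the cortex came 5 libraries of NC, 4 of HS and 6 of CAL, and from the colon 5, 5 and 6 in the same order. Strain, sex, age, dose and duration were not given in the sources used here, and nothing there ties a library to one animal, so p-values measure the spread between these libraries, which may be partly technical.

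The proteasome is the barrel-shaped protease that degrades ubiquitin-tagged proteins in the cytosol and nucleus. Its 20S core stacks rings of alpha subunits (Psma) around rings of beta subunits (Psmb), and the 19S cap holds a base and a lid. The base has ATPases (Psmc) that unfold and feed in the substrate, together with Psmd1, Psmd2 and Psmd4. The lid, made mostly of other Psmd subunits, strips off ubiquitin. Interferon replaces the catalytic subunits Psmb5, Psmb6 and Psmb7 with Psmb8, Psmb9 and Psmb10 and induces the PA28 activator (Psme1 and Psme2), which changes the peptides cut for MHC class I.

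Upstream sequence is shown for the inducible subunits and Psme2, whose levels separated the control tissues, and for Psmb5, the constitutive partner of Psmb8. Each run covers 250 bases before to 30 bases after the annotated gene start, 5′ to 3′ along the gene, from RefSeq for rat build GRCr8. Capitals mark matches on either strand to an interferon-stimulated response element, read as GAAA and GAAA with any 2 bases between them, or, in Psmb5, to TGACNNNGC, the core of the antioxidant response element that Nrf1 and Nrf2 bind.
Psmb8 (chr20:4657002-4657281, - strand): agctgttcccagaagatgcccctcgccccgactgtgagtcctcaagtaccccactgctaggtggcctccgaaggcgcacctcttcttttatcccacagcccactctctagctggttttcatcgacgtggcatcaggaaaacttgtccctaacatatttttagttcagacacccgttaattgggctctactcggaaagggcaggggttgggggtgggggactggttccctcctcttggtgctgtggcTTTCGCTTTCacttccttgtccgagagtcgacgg
Psmb9 (chr20:4668750-4669029, + strand): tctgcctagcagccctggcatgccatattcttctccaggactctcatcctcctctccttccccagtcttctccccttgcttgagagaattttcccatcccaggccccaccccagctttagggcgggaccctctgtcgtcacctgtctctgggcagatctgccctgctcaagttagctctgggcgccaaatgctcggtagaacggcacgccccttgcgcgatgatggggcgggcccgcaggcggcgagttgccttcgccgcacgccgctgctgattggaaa
Psmb10 (chr19:50743263-50743542, - strand): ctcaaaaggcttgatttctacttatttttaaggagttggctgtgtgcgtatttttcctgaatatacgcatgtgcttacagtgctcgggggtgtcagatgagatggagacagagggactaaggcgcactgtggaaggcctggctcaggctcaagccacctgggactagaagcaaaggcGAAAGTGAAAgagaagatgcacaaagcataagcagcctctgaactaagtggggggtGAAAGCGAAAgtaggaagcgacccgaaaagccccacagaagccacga
Psme2 (chr15:33052722-33053001, - strand): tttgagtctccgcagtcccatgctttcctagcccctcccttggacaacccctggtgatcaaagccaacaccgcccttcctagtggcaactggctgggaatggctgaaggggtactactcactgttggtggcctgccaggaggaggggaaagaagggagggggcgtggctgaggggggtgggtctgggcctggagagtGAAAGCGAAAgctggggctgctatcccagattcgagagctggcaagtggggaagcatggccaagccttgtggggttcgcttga
Psmb5 (chr15:32047350-32047629, - strand): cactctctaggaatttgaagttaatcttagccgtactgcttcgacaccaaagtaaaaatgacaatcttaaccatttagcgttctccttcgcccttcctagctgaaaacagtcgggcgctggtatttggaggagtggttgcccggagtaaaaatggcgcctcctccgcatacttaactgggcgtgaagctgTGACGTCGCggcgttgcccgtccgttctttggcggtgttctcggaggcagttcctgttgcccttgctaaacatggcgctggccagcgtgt

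Psmb10 held 2 matches to the interferon letters and Psmb8 and Psme2 1 each. In Psmb9 these letters were not found in this window. Over the 45 proteasome genes with such a window, 7 (15.6%) held the interferon letters, against 3.75% of 33465 rat windows of the same length. The other members with a match were Psma4, Psmb3, Psmd7 and Psmg4. The antioxidant letters were in 8 of 45 (17.8%), against 11.3% of all windows: Psma3l, Psmb2, Psmb5, Psmb6, Psmd1, Psmd3, Psmd9 and Psme4. By gene order in GRCr8, Psmb8 and Psmb9 lie beside the peptide transporter genes Tap1 and Tap2, with Tap2, Psmb8, Tap1 and Psmb9 in that order. Psme1 and Psme2 lie on either side of Emc9. A match describes these letters only, and the coordinates are of GRCr8, while the authors aligned to Rnor_6.0.

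The libraries were shallow, with 289529 to 2265164 counts in the cortex and 267976 to 918820 in the colon. Proteasome genes held 0.732% ± 0.0281 (SD, n = 15) of all counts in the cortex and 0.809% ± 0.106 (SD, n = 16) in the colon. Proximal tubule markers (all 9 listed were in the matrix) summed to between 12019 and 16160 counts scaled to equal library totals (CPM) in cortex libraries, and colonocyte markers (8 of 9) to between 8098 and 14625 CPM in colon libraries. Erythrocyte markers (8 of 9 listed) summed to 3893 to 19849 CPM in NC, 1006 to 1806 in HS and 3659 to 6836 in CAL cortex, and none was at 0 in a whole group. In the colon, HS libraries 3 and 4 stood apart, with leukocyte markers (all 13 listed) at 17114 and 16691 CPM, against 1144 to 6379 in the other HS libraries, 1496 to 6452 in NC and 1375 to 4594 in CAL. HS library 3 also held 1385 CPM of Slc6a19, an amino acid transporter of small intestine and proximal tubule that reached at most 3.31 CPM in the other colon libraries. Its colonocyte sum of 8807 CPM was in the range of the others, so that list as a whole was not low in it. Of the list, Car1 and Slc26a3 were at their lowest in it, and so was Scnn1a, which is not on the list. Values of the other listed genes are not given here. Car1, a carbonic anhydrase, was at 8.29 CPM against 259 to 4788 in the other colon libraries. Scnn1a, a sodium channel subunit, was at 11.1 against 123 to 353, and Slc26a3, a chloride exchanger, at 329 against 936 to 3130. Whether this library is of the same stretch of gut as the others was not tested. In tissue RNA, fewer cells of a type and less RNA per cell cannot be told apart.

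In the cortex, high salt moved a few subunits and left most without a call. Psmc6, an ATPase of the 19S base, Psme4, the PA200 activator, and Psma1, an alpha ring subunit, rose in HS, and Psma7, another alpha subunit, fell. These were 3 of 48 genes higher and 1 of 48 lower at an adjusted p under 0.05 in edgeR's quasi-likelihood test. Of all 7524 genes tested, 7.35% were higher and 3.69% lower, so the share of proteasome genes called was no larger than that of all genes. The median log2 fold change was -0.04 over the 48 and -0.01 over all genes tested.

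Psmc6 stood at 96.4, 122, 95.4, 88.7 and 91.7 CPM in the 5 NC libraries and at 166, 199.9, 168 and 180.2 CPM in the 4 HS libraries, after scaling by the trimmed mean of M-values (TMM). Every HS library lay above every NC library. Its log2 fold change was 0.84 (SE 0.15, edgeR adjusted p = 0.00214), a 1.79-fold difference, and the call remained with any 1 library left out (largest adjusted p 0.0119). Psmc6 overlaps Styx in RefSeq, and the strand setting of the counting was not given in the sources used here, so reads of the overlap may be missing or shared. Styx itself had 0 to 5 counts in a library.

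Psme4, whose product caps the 20S core and is best known for the degradation of acetylated histones, measured 41.1, 51.8, 46.8, 37.5 and 28.4 CPM in NC and 62.1, 76.3, 70.1 and 59.7 CPM in HS. The groups did not overlap. The log2 fold change was 0.67 (SE 0.19, edgeR adjusted p = 0.0282). It rested on 17 to 61 counts in an NC or HS library.

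Psma1 measured 197, 227, 207, 181 and 240.2 CPM in NC and 293, 285, 249 and 290.0 CPM in HS, with HS library 3 the lowest of its group and still above all of NC. Its log2 fold change was 0.41 (SE 0.12, edgeR adjusted p = 0.0277). Psma7 moved the other way, from 500.4, 447, 454, 509 and 444 CPM in NC to 352, 349, 424 and 332 CPM in HS, also without overlap. It fell by 0.38 on the log2 scale (SE 0.11, edgeR adjusted p = 0.0300). Both proteins are parts of the same ring, and their transcripts moved in opposite directions.

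These 3 smaller changes were less firm than that of Psmc6. Without NC library 4, or without HS library 1 or 2, the adjusted p of each of them rose above 0.05. The same held for Psma1 without NC library 1 or 3 or HS library 4, for Psma7 without NC library 1 or HS library 4 and for Psme4 without NC library 5, and the largest values over all libraries left out in turn were 0.105 for Psme4, 0.0868 for Psma1 and 0.107 for Psma7. With the erythrocyte share of counts as a covariate, an alternative chosen after seeing the data, no member was past the threshold. Psmc6 kept its size in that fit, at 0.88, with a wider error (SE 0.35, edgeR adjusted p = 0.328), while Psma1 was at 0.55 (0.413), Psma7 at -0.40 (0.522) and Psme4 at 0.28 (SE 0.43, 0.83). That share did not overlap between HS and NC, so it and the salt group cannot be told apart.

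**Figure D1:**
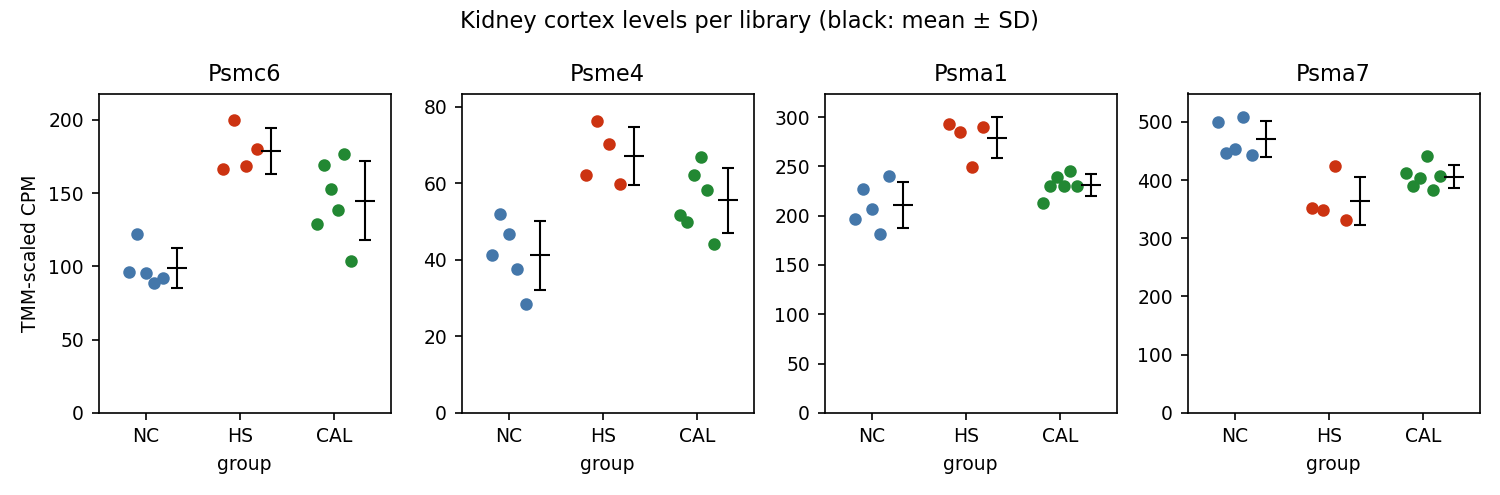
TMM-scaled CPM (vertical axis, linear, from 0) of the 4 proteasome genes past the threshold in cortex HS against NC, 1 point per library, with the mean ± SD of each group in black. For all 4 genes the HS points do not overlap the NC points, and the CAL means of Psmc6 (145), Psme4 (55.5), Psma1 (231) and Psma7 (406) lie between those of NC and HS.

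By role, the alpha ring had 6 of 7 tested genes with a positive log2 fold change in the cortex, with a median of 0.26. Beside Psma1, Psma2 and Psma3l leaned upward, by 0.35 (edgeR adjusted p = 0.0737) and 0.37 (0.111), without passing. Psma2 passed without NC library 1 (0.0459) and in limma voom with library weights (0.0467). The constitutive beta subunits had none past the threshold, and the catalytic Psmb5, Psmb6 and Psmb7 differed by -0.03, 0.01 and -0.11. Psmb5, the chymotrypsin-like subunit, was at 377 ± 25.1 CPM in NC (SD, n = 5), 371 ± 25.5 in HS (SD, n = 4) and 381 ± 70.3 in CAL (SD, n = 6).

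The inducible subunits were low in the cortex. Psmb10 was at 66.6, 42.5, 30.6, 15.8 and 41.7 CPM in NC and at 22.2, 22.9, 38.6 and 16.7 CPM in HS, with a log2 fold change of -0.81 (SE 0.33, edgeR adjusted p = 0.112). The groups overlapped. The difference passed without NC library 4, the lowest of NC (adjusted p = 0.0469), and had the opposite sign, 0.63 (SE 0.63), with the erythrocyte covariate. Psmb8 differed by -0.39 and Psmb9 by -0.06, and Psmb8 rested on 1 to 30 counts in a cortex library.

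In the 19S base, Psmc6 was the only one of the 6 ATPases called. Psmc4 differed by -0.38 (edgeR adjusted p = 0.101), and 4 of the 6 had a negative value. None of the 8 lid genes passed. Psmd12, a scaffold subunit of the lid, came nearest, with 112, 108, 126, 82.8 and 107 CPM in NC, 159.6, 127, 151 and 152 CPM in HS and a log2 fold change of 0.45 (SE 0.16, edgeR adjusted p = 0.0643). HS and NC did not overlap for it, by a narrow margin. Psmd14, the deubiquitinase of the lid, differed by 0.36 (0.186), and Psmd4, a ubiquitin receptor of the base, by -0.12.

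Among the regulators, Psmf1, the PI31 protein that inhibits the core in vitro, was at 109, 102, 124, 114 and 120.1 CPM in NC and 99.7, 96.1, 66.6 and 80.0 CPM in HS. All HS values lay below all NC values, but the log2 fold change of -0.39 did not pass (SE 0.17, edgeR adjusted p = 0.15). The PA28 genes Psme1, Psme2 and Psme3 differed by -0.31, -0.16 and -0.10, none past the threshold. Of the 7 assembly chaperones, which build the rings and the base and leave the finished particle, none passed. Counting both directions, HS and NC did not overlap for 6 of 48 proteasome genes (Psmc6, Psma1, Psme4 and Psmd12 higher, Psma7 and Psmf1 lower), beside 13.1% of all genes tested.

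Genes that work with the proteasome were followed in the same fit. Of 29 genes for ubiquitin, shuttle factors, cap partners and regulators of proteasome genes that were in the matrix, 28 were tested, 7 rose and 1 fell in HS, with a median log2 fold change of 0.26, beside 7.35% higher, 3.69% lower and a median of -0.01 over all genes tested. The list was chosen with earlier results of these data known. Its calls are of the main fit only, and whether they hold with a library left out or other filters was not examined. Zfand5, a zinc finger protein that binds the proteasome and stimulates it, rose from 51.4 ± 5.41 CPM (SD, n = 5) to 106 ± 22.7 (SD, n = 4), by 1.01 (SE 0.17, edgeR adjusted p = 0.00119). Nfe2l2, which encodes Nrf2, rose by 0.73 (0.0135), Uba6, a ubiquitin-activating enzyme, by 0.96 (0.0190), and Akirin2, which carries proteasomes into the nucleus, by 0.72 (0.0244). The cap's deubiquitinases Uchl5 and Usp14 rose by 0.80 (0.0255) and 0.57 (0.0390), and Rad23b, a shuttle factor, by 0.62 (0.0248). Adrm1, the ubiquitin receptor of the cap that binds Uchl5, fell by 0.53 (0.0390). Of 8 genes for peptide loading and interferon signalling, 5 were tested, and B2m rose, by 0.55 (0.0127). Erythrocyte markers moved with these calls, with 6 of 7 tested genes lower in HS and a median of -3.22. Their part in the calls of these related genes was not tested, since the covariate above was examined for proteasome genes only.

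**Figure D2:**
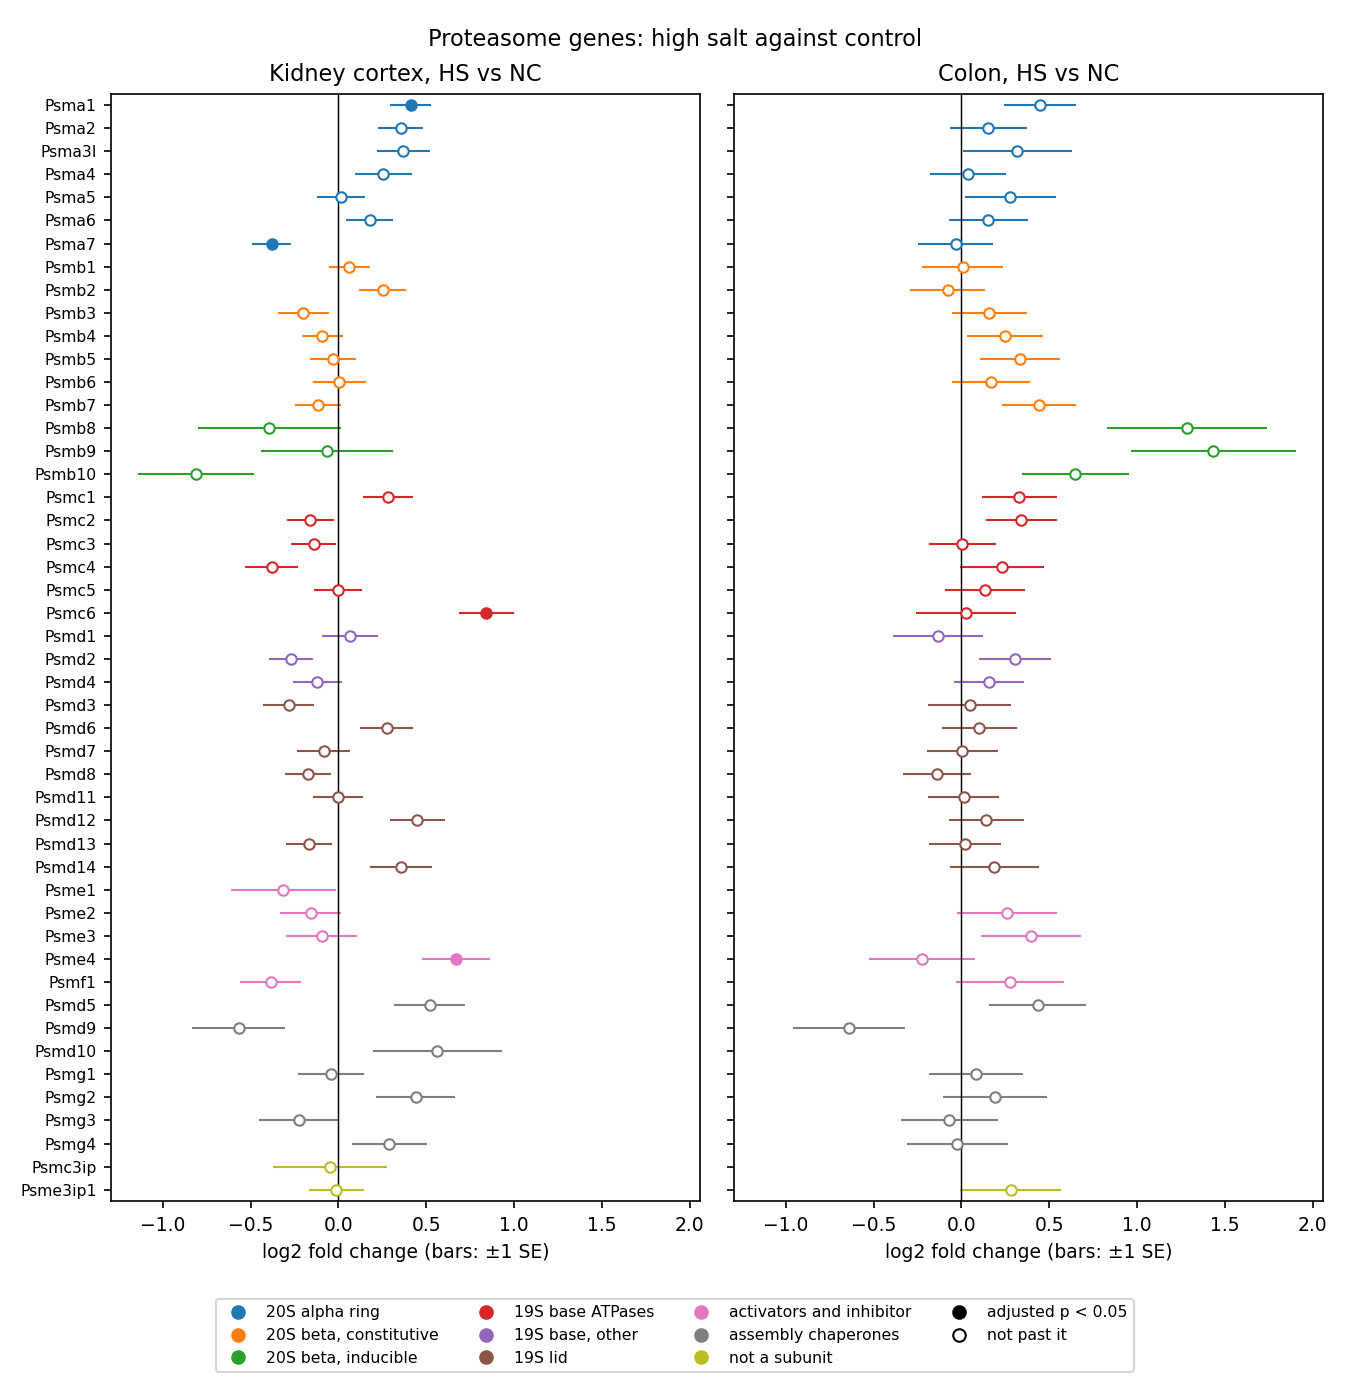
Log2 fold change of HS against NC (horizontal axis, same scale in both panels) for each tested proteasome gene in the cortex (left, 48 genes) and the colon (right, 45 genes), coloured by role, with bars of 1 SE. Filled points passed an adjusted p of 0.05; there are 4 in the cortex and 0 in the colon, and genes with no point in the colon were not tested there.

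Calcitriol on top of salt gave no called proteasome gene in the cortex. For CAL against HS, edgeR called 0 of 48 and DESeq2 also 0, beside 0.758% of all genes, and 3 of 48 had an unadjusted p under 0.05, beside 16.2% of all genes. For CAL against NC, both tools called 0 of 48, beside 0% of all genes in edgeR, and 5 of 48 had an unadjusted p under 0.05, beside 11.9%. The comparisons share libraries (HS enters HS against NC and CAL against HS), so the values that follow are not independent of those above.

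Psmc6 in CAL ran from 104 through a median of 145 to 177 CPM, overlapping both HS and NC. It differed from HS by -0.32 (SE 0.14, edgeR adjusted p = 0.279) and from NC by 0.52 (SE 0.14, 0.142). Without CAL library 6, the lowest, the latter passed (adjusted p = 0.0383). Psma1 in CAL lay between 213 and 245 CPM with a median of 230.5, below every HS library. CAL and HS did not overlap for 2 of 48 proteasome genes, beside 4.17% of all genes tested. Psma1 differed from HS by -0.28 (0.221) and from NC by 0.13 (0.646). Psme4 ran from 44.1 through 54.9 to 66.9 CPM, -0.26 from HS (0.506) and 0.40 from NC (0.352). Psma7 ran from 383 through 405 to 442 CPM, 0.17 from HS (0.468) and -0.21 from NC (0.389). The CAL means of these 4 lay between the means of HS and NC, and none of the differences passed.

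Psmd9, a chaperone of the base, was at 18.4 ± 5.62 CPM in HS (SD, n = 4), 29.0 ± 7.54 in NC (SD, n = 5) and 28.7 ± 2.11 in CAL (SD, n = 6). It differed by -0.57 in HS against NC (edgeR adjusted p = 0.161) and by 0.55 in CAL against HS (0.286). Among the related genes, Zfand5 fell in CAL against HS, by 0.69 on the log2 scale (SE 0.16, edgeR adjusted p = 0.0410), and was the 1 of 28 that passed. That call is also of the main fit only.

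The control tissues differed in the make-up of the proteasome transcripts. In NC cortex against NC colon, on a scale set jointly over both tissues, 11 of 45 genes were higher in the cortex and 7 lower, beside 25.2% and 27.3% of 5992 genes tested. The share of proteasome genes called was thus below that of all genes. All 3 inducible catalytic subunits and Psme2 were lower in the cortex, while 6 of the 17 cap genes were higher and none was lower. HS and CAL libraries entered this fit only for the estimate of spread.

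Psmb8 measured 34.4, 22.1, 13.4, 17.0 and 28.6 CPM in NC cortex and 112, 55.2, 65.2, 64.3 and 48.7 CPM in NC colon. Psmb9 measured 49.9, 18.9, 15.6, 24.2 and 79.7 CPM in cortex and 138, 83.7, 86.9, 109 and 116 in colon. Psmb10 measured 80.9, 52.6, 37.9, 19.4 and 51.1 CPM in cortex and 207, 137, 102, 124 and 127 in colon. For each of the 3 every cortex library lay below every colon library, though for Psmb9 cortex library 5 came close to the lowest of the colon. Relative to the colon, the log2 difference was -1.54 for Psmb8 (SE 0.45, edgeR adjusted p = 0.00405), -1.52 for Psmb9 (SE 0.46, 0.00509) and -1.49 for Psmb10 (SE 0.30, 8.18e-05).

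Psme2, the beta subunit of PA28, measured 127, 153.5, 114, 141 and 153 CPM in cortex and 334.5, 249, 301, 314 and 277 CPM in colon, without overlap, a log2 difference of -1.09 (SE 0.23, edgeR adjusted p = 1.61e-04). Psme1, its partner, was not tested in the colon. Psme1 overlaps Emc9 in RefSeq, so reads of the overlap may be missing or shared and its counts are uncertain. Emc9 itself had 0 to 27 counts in a library. Of the 5 immune-related genes tested, 4 were lower in the cortex, among them Irf1, the interferon regulatory factor that drives inducible subunits, by -2.13 (adjusted p = 1.08e-05), and B2m by -2.02 (2.81e-10). Leukocyte markers moved with them in part, since 3 of 6 tested were lower in the cortex, with a median of -0.77, and their part in the result was not tested.

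The constitutive partners went the other way or showed no call. Psmb5 was at 464 ± 29.9 CPM in NC cortex and 302 ± 46.4 in NC colon (SD, n = 5 each), a log2 difference of 0.62 (SE 0.18, edgeR adjusted p = 0.00371). Psmb7, the trypsin-like subunit, was at 243 ± 22.0 and 143 ± 20.2 CPM, a difference of 0.76 (SE 0.16, 1.56e-04). Psmb6, the caspase-like subunit, was at 251 ± 21.1 and 205 ± 5.65 CPM, a difference of 0.29 that did not pass (0.173). For Psmb5, Psmb6 and Psmb7 the tissues did not overlap. Elsewhere in the core, Psma2 (-0.58), Psma6 (-0.50) and Psmb1 (-0.46) were lower in the cortex.

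In the cap, Psmd2, the scaffold subunit that docks ubiquitin-like domains, gave the largest difference of the 45 relative to its error. It measured 367, 396.5, 348, 402 and 442 CPM in cortex and 161, 232, 251, 217 and 161 CPM in colon, well apart, a log2 difference of 0.94 (SE 0.16, edgeR adjusted p = 6.16e-06). The ATPases Psmc2 (0.61), Psmc4 (0.60) and Psmc5 (0.44) and the lid subunits Psmd6 (0.61) and Psmd3 (0.59) were also higher in the cortex. Of the 17 cap genes, 15 had a positive value, with a median of 0.34 against -0.04 over all genes. Psmc6 and Psmd14 were the exceptions, at -0.27 and -0.25, neither past the threshold.

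Of the regulators, Psmf1 was higher in the cortex by 0.79 (SE 0.24, edgeR adjusted p = 0.00523), with 140.1 ± 11.1 CPM against 80.5 ± 11.3 (SD, n = 5 each). Psme3, the nuclear PA28 gamma, was higher by 0.60 (0.0288), a call lost without NC cortex library 1 or NC colon library 1 or 2 (largest adjusted p 0.134). Psme3ip1, an interaction partner of it, was higher by 0.56 (0.0332). None of the 6 assembly chaperones tested passed. In all, 18 members did not overlap between the tissues, beside 43.1% of all genes. The split depends on scaling. With total counts in place of TMM, which moves the median of all genes from -0.04 to -0.21, 6 were higher and 10 lower in the cortex, and the calls of Psmc4, Psmc5, Psmd3, Psme3 and Psme3ip1 were lost. The inducible subunits and Psme2 remained lower and Psmb5, Psmb7, Psmc2, Psmd2, Psmd6 and Psmf1 higher.

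**Figure D3:**
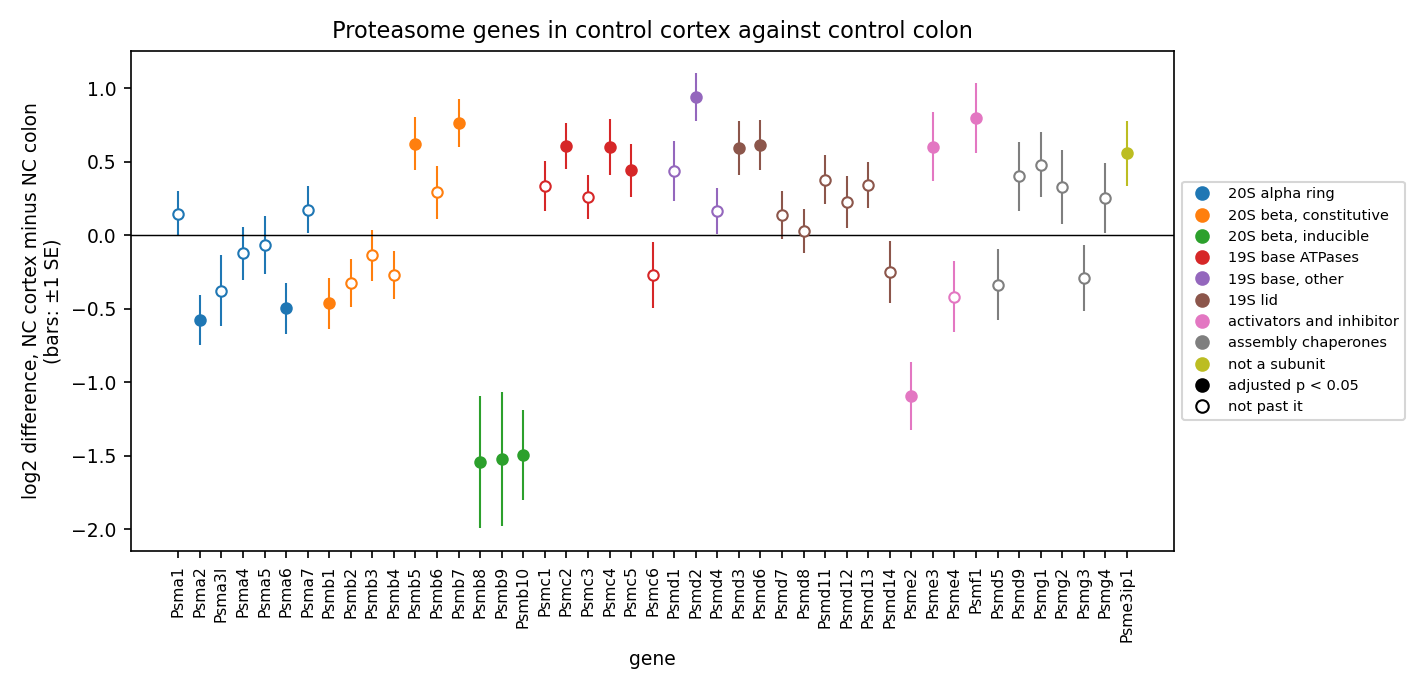
Log2 difference between NC cortex and NC colon (vertical axis; above 0 is higher in the cortex) for the 45 proteasome genes tested in both tissues, coloured by role, with bars of 1 SE and filled points past an adjusted p of 0.05. The 3 inducible subunits lie near -1.5, and 15 of the 17 cap genes lie above 0.

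The ratio of an inducible subunit to its constitutive partner within a library needs no scaling between libraries, but it is not a ratio of molecules, because gene length enters it. The log2 ratio of Psmb8 to Psmb5 counts was -4.34 ± 0.53 in NC cortex and -2.16 ± 0.37 in NC colon (SD, n = 5 each). Psmb9 to Psmb6 stood at -2.97 ± 1.05 and -0.96 ± 0.27, and Psmb10 to Psmb7 at -2.44 ± 0.72 and -0.06 ± 0.26. For each pair the highest NC cortex library lay below the lowest NC colon library.

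Within the cortex the ratios showed no shift beyond the spread of the libraries. Psmb8 to Psmb5 was -4.55 ± 0.17 in HS (SD, n = 4) and -5.01 ± 1.17 in CAL (SD, n = 6), where library 3 reached -7.38 on 1 count of Psmb8. In the colon, Psmb8 to Psmb5 was -1.58 ± 1.27 in HS (SD, n = 5) and -2.44 ± 0.66 in CAL (SD, n = 6), and the highest value of each of the 3 ratios in HS was that of library 3, at 0.39, 1.92 and 0.89.

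**Figure D4:**
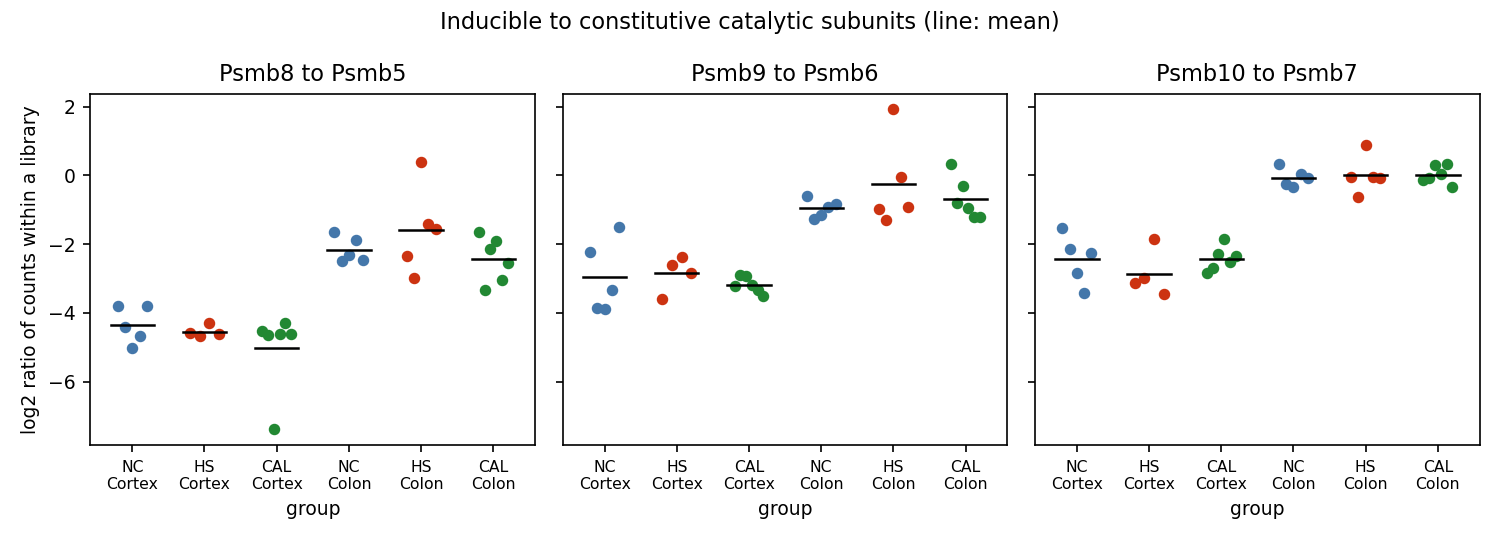
Log2 ratio of the counts of each inducible catalytic subunit to those of its constitutive partner (vertical axis), 1 point per library and a line at the mean of each group. The cortex groups lie below the colon groups, and in each panel HS colon library 3 (0.39, 1.92 and 0.89) is the highest point.

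In the colon, high salt gave no called proteasome gene. EdgeR called 0 of 45, beside 0% of 7217 genes, and DESeq2 0 of 45, and 5 of 45 had an unadjusted p under 0.05, beside 8.51% of all genes. The 5 were Psmb9, Psmb8 and Psmb10 and the core subunits Psma1 and Psmb7. The log2 fold changes leaned upward, with 37 of 45 positive and a median of 0.16, beside 3912 of 7217 positive and a median of 0.04 over all genes. Proteasome genes held 1.10% of counts in HS library 3, against 0.746% to 0.889% in the other HS libraries. Mean log2 levels of the 20S core, 19S base, 19S lid and regulators were also the highest of HS in that library. That of the assembly chaperones was not. The lean without that library is not given here.

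Psmb9 measured 119.9, 73.9, 77.2, 96.1 and 103 CPM in NC, 104, 98.7, 818, 176 and 89.4 CPM in HS, and from 94.8 through 127 to 168 CPM in CAL. HS library 3 was more than any other by a wide margin and library 4 second, while the remaining HS libraries lay within the NC range. The log2 fold change was 1.43 (SE 0.47, edgeR adjusted p = 0.438). Without HS library 3 it was 0.31, and without HS libraries 3 and 4 it was 0.06.

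Psmb8 also had its highest values in HS libraries 3 and 4, with 97.8, 48.7, 57.9, 56.6 and 43.4 CPM in NC, 64.7, 53.9, 420.2, 129 and 82.8 CPM in HS, and 36.7 through 60.4 to 105 CPM in CAL. Its log2 fold change was 1.28 (SE 0.46, edgeR adjusted p = 0.450), 0.42 without HS library 3 and 0.13 without libraries 3 and 4. Psmb10 measured 181, 121, 91.0, 109 and 113.5 CPM in NC and 142, 128, 431, 159 and 113 CPM in HS, and its log2 fold change of 0.65 (0.576) was 0.14 without HS library 3. Psme2 stood at 628 CPM in HS library 3 and at 199 to 249 in the other HS libraries, with NC between 220.0 and 291. The pattern of these 4 genes in HS thus sits in library 3, and for Psmb8 and Psmb9 also in library 4.

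Tap1, the neighbour of Psmb8 and Psmb9, and Irf1 had the same highest library. Tap1 was at 191 CPM in HS library 3 and 89.4 in library 4, with 31.4 to 43.1 in the other HS libraries, and differed by 1.55 (edgeR adjusted p = 0.449). Irf1 differed by 1.16 (0.330). Leukocyte markers, whose sums were given above, were high in the same pair of libraries, with a median log2 fold change of 1.47 over 11 tested genes and none past the threshold. Their part in the levels of the inducible subunits was not tested.

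**Figure D5:**
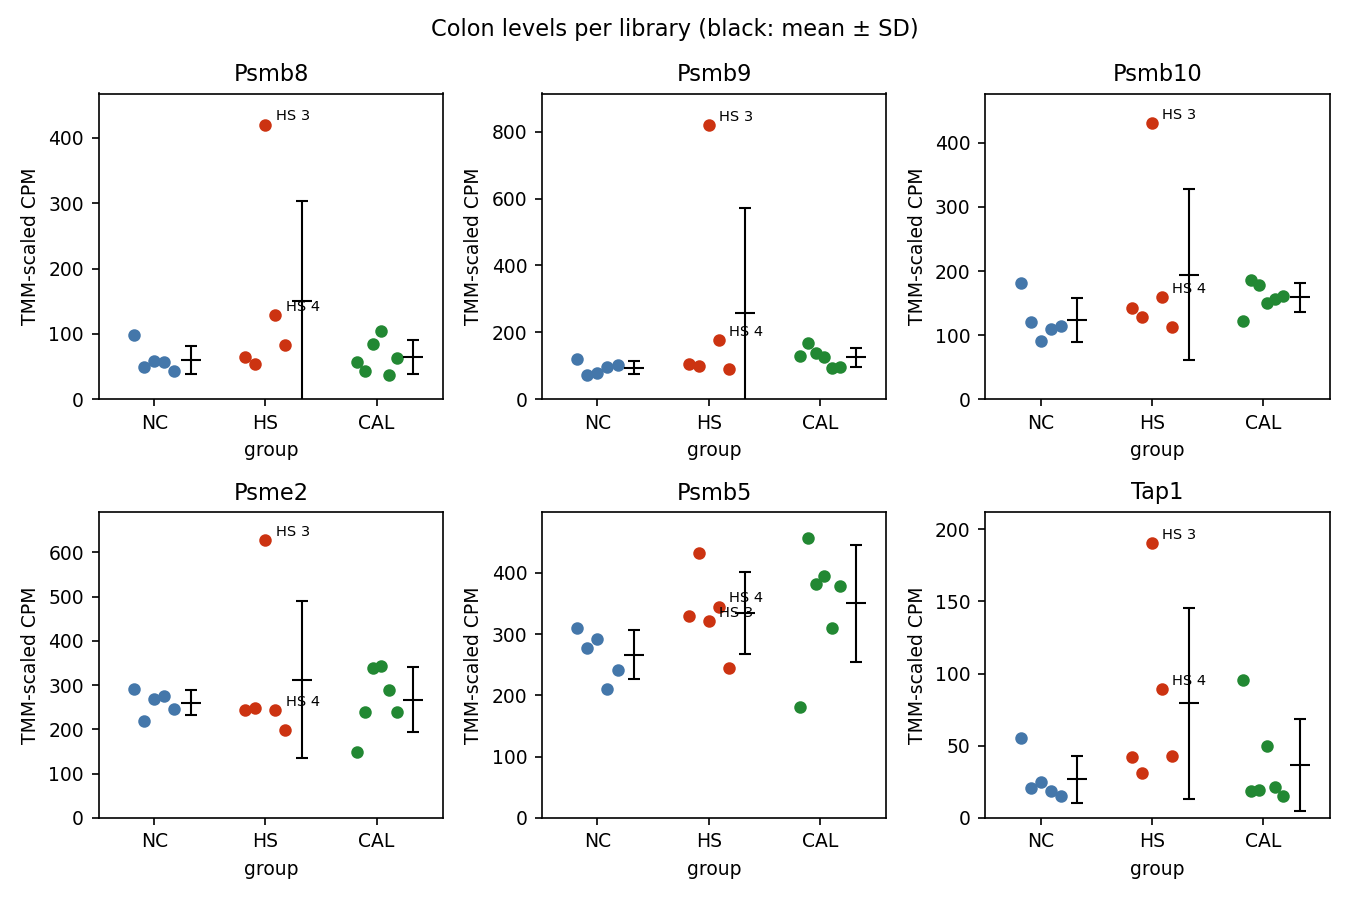
TMM-scaled CPM in the colon (vertical axis, linear, from 0) of the inducible subunits, Psme2, the constitutive Psmb5 and the peptide transporter gene Tap1, 1 point per library, with the mean ± SD of each group in black and HS libraries 3 and 4 named (SD bars that reach below 0 are cut at the axis). HS library 3 is far above the other points for Psmb8 (420.2), Psmb9 (818), Psmb10 (431), Psme2 (628) and Tap1 (191), and for Psmb5 (321) it lies among them.

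Psma1 differed in the colon by much the same size as in the cortex. It measured 181, 211, 218, 218.5 and 207 CPM in NC and 239.5, 325, 373, 241 and 232 CPM in HS. The groups did not overlap, which held for 1 of 45 proteasome genes, beside 1.4% of all 7217 genes tested. The spread within HS was wide, and the log2 fold change of 0.45 (SE 0.21) did not pass (edgeR adjusted p = 0.566). Psmc6, the strongest call of the cortex, stood at 131 ± 28.6 CPM in NC colon and 133 ± 55.4 in HS colon (SD, n = 5 each). HS library 4 gave 37.2 CPM of Psmc6, below the 136 to 177 of the others. Psmb5 was at 266 ± 39.9 in NC and 335 ± 67.2 CPM in HS, and Psmb7 at 126 ± 17.2 and 172 ± 44.3, a log2 fold change of 0.44 (0.582).

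Calcitriol again gave no call in the colon. For CAL against HS, edgeR called 0 of 45 and DESeq2 0, beside 0.0139% of all genes, and 4 of 45 had an unadjusted p under 0.05, beside 10.5%. Psmb8 differed by -1.18 (SE 0.44, edgeR adjusted p = 0.346) and Psmb9 by -1.03 (SE 0.44, 0.424). Both rest on the HS library already described. Without it Psmb8 differed by -0.32 and Psmb9 by 0.10, the opposite sign. Psma1 differed by -0.47 (0.420) and Psmd9 by 0.73 (0.424). For CAL against NC, edgeR called 0 of 45 and DESeq2 0, beside 0% of all genes, and 0 of 45 had an unadjusted p under 0.05, beside 3.85% of all genes.

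Pomp, the chaperone that matures the 20S core and lies outside the symbol rule, was at 24.0, 11.0, 5.51, 27.6 and 6.68 CPM in NC colon, 14.8, 53.9, 13.8, 9.93 and 9.94 CPM in HS and 14.0 through 48.2 to 118 CPM in CAL. The groups overlapped. It differed by 1.94 in CAL against NC (SE 0.56, edgeR adjusted p = 0.9999) and by 1.53 in CAL against HS (SE 0.56, 0.345). In the cortex it lay between 6.10 and 21.0 CPM in every library.

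The difference between tissues in the response to salt was tested directly, as the colon log2 fold change of HS against NC minus that of the cortex. EdgeR called 0 of 45 and DESeq2 0, beside 0.25% of 5992 genes, and 9 of 45 had an unadjusted p under 0.05, beside 15.6%. Psmb10 came nearest, at 1.44 (SE 0.48, edgeR adjusted p = 0.153), and Psmb8 and Psmb9 gave 1.68 (0.233) and 1.5 (0.281). Psmc6 gave -0.80 (SE 0.32, 0.221) and Psme4 -0.86 (SE 0.35, 0.231). The call of Psmc6 in the cortex and its absence in the colon is therefore not shown to be a difference between the tissues. For CAL against HS the same test called 0 of 45 in edgeR and DESeq2, beside 0% of all genes, and 1 of 45 had an unadjusted p under 0.05 (Psmd3), beside 10.7%.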

How the data were processed

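RNA of rat kidney cortex and colon was sequenced in 31 libraries, prepared with the TruePrep kit V2 per the labels' protocols. The authors deposited raw counts per gene symbol in 1 matrix. The submitters' processing notes list FastQC 0.11.9, Trimmomatic 0.39, HISAT2 2.1.0 and featureCounts 1.6.5 with build Rnor_6.0; the annotation, strand setting and handling of overlapping or multiply mapped reads were not given in the sources used here.

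Counts were tested with edgeR 4.0.16 (quasi-likelihood, TMM scaling, R 4.3.3) over all 3 groups of a tissue, or all 6 for comparisons between tissues, with Benjamini-Hochberg adjustment over all genes tested and a threshold of 0.05. The filter filterByExpr used a minimum count of 10 and a total of 15, and genes compared between tissues passed in both. CPM of genes in the text are TMM-scaled and relative to the counts in tested genes. Marker sums are CPM. Ratios are of counts plus 0.5. The edgeR test of HS against NC was first run on simulated data for each tissue. The other comparisons and the alternatives were not run on simulated data. Alternatives were DESeq2 1.42.0, limma voom 3.58.1 with library weights, other scalings and filters, thinning, a replicate block and leaving out libraries. They were examined for proteasome genes and not for the related genes or markers. No pair of replicate libraries was identical (66 pairs).

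Values are given in full for members past the threshold (at most 15, by smallest p) and for 13 regulators and catalytic subunits always listed. Other members are given where they had the smallest p of a class or completed a small count; Psma2, Psma3l, Psmc4 and Psmd9 were added after their values were seen. The members and the lists were chosen with earlier results of these data known. Psma3l is a RefSeq synonym of Psma3, and the other 49 matched by symbol. RefSeq names copies or pseudogenes for 19 members, and 7 overlap another gene of the matrix, so their counts are uncertain.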

Additional observations from a re-analysis of the deposited data

Results flagged for a closer look

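Of 138 sets of values (20 named genes in 6 groups, and 3 ratios in 6 groups), 15 had 1 library far from the rest of its group by Dixon's test at the 95% level, on the log2 scale. Chance marks about 1 set in 20. No cause was tested. All levels are TMM-scaled CPM. In the colon, HS library 3 was the highest for Psmb10 (431) and Psme2 (628), and HS library 4 the lowest for Psmc6 (37.2). CAL colon library 6 was the lowest for Psmc2 (96.8) and Psme1 (3.03), and CAL colon library 1 for Psma7 (297). NC colon library 1 was the lowest for Psma1 (181) and NC colon library 3 for Psma7 (386).

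In the cortex, HS library 3 was the highest for Psmd2 (301) and the lowest for Psma1 (249), and HS library 1 was the highest for Psme1 (17.7). NC library 2 was the highest for Psmc6 (122) and NC library 1 for Psme3 (105). CAL library 3 was the lowest for Psmb8 (1.29) and for the log2 ratio of Psmb8 to Psmb5 (-7.38), both of which rest on 1 count of Psmb8. No proteasome gene passed the test of a difference between the tissues.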

How the results depend on the processing

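For cortex HS against NC, where 4 proteasome genes passed, the count ranged from 1 to 5 as each library was left out. It was 1 with no filter on low counts, 1 with a filter on 1 CPM in 4 libraries, 1 with all libraries thinned to the shallowest and 0 with the erythrocyte covariate. Psmc6 passed in all of these but the covariate fit. Psmb10, at -0.81 in the main comparison, was at 0.63 with that covariate. For CAL against NC in the cortex the count of 0 became 1 (Psmc6) without CAL replicate 6. The count for the control tissues, 18, ranged from 15 to 19 with a library left out and from 16 to 23 under the other alternatives. In the remaining 6 comparisons the count was 0 under every alternative run. For colon CAL against HS, Psmb9 (-1.03) ranged from -1.23 to 0.10 as each library was left out, the latter without HS replicate 3, and was at 0.35 without HS replicates 3 and 4. Psmb10 (-0.29) ranged from -0.42 to 0.22, again without HS replicate 3, and was at 0.29 without HS replicates 3 and 4 and at 0.14 with voom library weights. The cause of these changes was not tested. All 111 recomputed ratios and 24 class means moved by less than the SD of their group. Leaving out a library cannot move a group mean by that much, and the class means were recomputed only with another pseudocount. These recomputations therefore say little about how firm the values are.

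Libraries of 2 groups share replicate numbers. Libraries with the same number had correlated deviations (r over 0.1) in 0 of 4 or 5 pairs in each cortex comparison. In the colon this held for 2, 2 and 0 of 5 pairs. In colon HS against NC, 3 of 5 HS libraries correlated best with the NC library of their own number. Whether the numbers pair libraries is not settled by this check, and pairing between cortex and colon was not checked. The main tests treat libraries as unpaired. With the replicate block the count was 4 for cortex HS against NC, 1 (Psmc6, adjusted p = 0.0321) for cortex CAL against NC, 18 for the control tissues and 0 for all others. Depth limits members with few counts, such as Psmb8 in the cortex, with 1 to 30 counts in a library.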
